A study of Mus musculus with 10 samples.

Results

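The *Hedgehog* pathway was followed in the cortical hem (CH) through 10 genes chosen by name: *Gli1*, *Gli2*, *Gli3*, *Ptch1*, *Smo*, *Sufu*, *Hhip*, *Boc*, *Cdon* and *Gas1*. They are 10 of the 52227 genes in the count table, and all 10 were found and passed the filter on low counts. RNAseq was performed on the CH, the signaling center at the medial edge of the cortex, isolated by laser capture microdissection (LCM) from 5 wild-type and 5 *Lmx1a*-/- mouse embryos at e13.5. The comparison asks which CH genes depend on Lmx1a, a LIM homeodomain transcription factor. Each library holds the pooled CH sections of 1 embryo, and the tissue to capture was located by Lmx1a staining of alternate sections. The mutants are homozygous for the *drJ* allele, a point mutation that inactivates the protein in every cell of the embryo, and both genotypes share a mixed background of C57Bl6, FVB and CD1. *Lmx1a* mRNA is still made from this allele, so its level (45.6 to 90.8 normalized CPM in wild-type and 89.9 to 145 in *Lmx1a*-/- libraries) does not check the genotype.

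Hedgehog proteins are secreted ligands that bind Ptch1, a membrane receptor that otherwise keeps the transducer Smo inactive. Active Smo works in the primary cilium and releases the Gli transcription factors from Sufu, so that Gli2 and Gli3 are no longer cut into repressors and targets such as *Gli1*, *Ptch1* and *Hhip* are transcribed. In the telencephalon the ligand Shh acts mainly on the ventral side, while in the dorsal telencephalon Gli3 acts mainly as a repressor and is required for the CH to form.

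Across the pathway, *Gli3* was the 1 gene of 10 that changed past the threshold. It was 1.35-fold higher in the CH of *Lmx1a*-/- embryos (log2 fold change 0.43 ± 0.079 SE, n = 5 embryos per genotype, FDR 0.012). Levels are normalized CPM (counts scaled to library size after TMM normalization), the test was the quasi-likelihood test of edgeR, and the threshold was a false discovery rate (FDR) under 0.1 over all 21664 genes tested. Over all these genes 4.02% passed, so 1 of 10 rests on a single gene. By unadjusted p under 0.05 in the quasi-likelihood test there were 3 genes, *Gli3*, *Ptch1* and *Boc*, against 16.4% of all genes tested. By an exact two-sided permutation test of the log2 CPM, *Ptch1* (p = 0.0635) and *Boc* (p = 0.0714) did not stay under 0.05. Of the 10 mean differences, 4 were positive and 6 negative, with a median log2 fold change of -0.08 against -0.00 over all genes tested. *Gli3* was also the 1 gene of 10 whose libraries did not overlap between genotypes, against 4.44% of all genes tested.

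**Figure D1:**
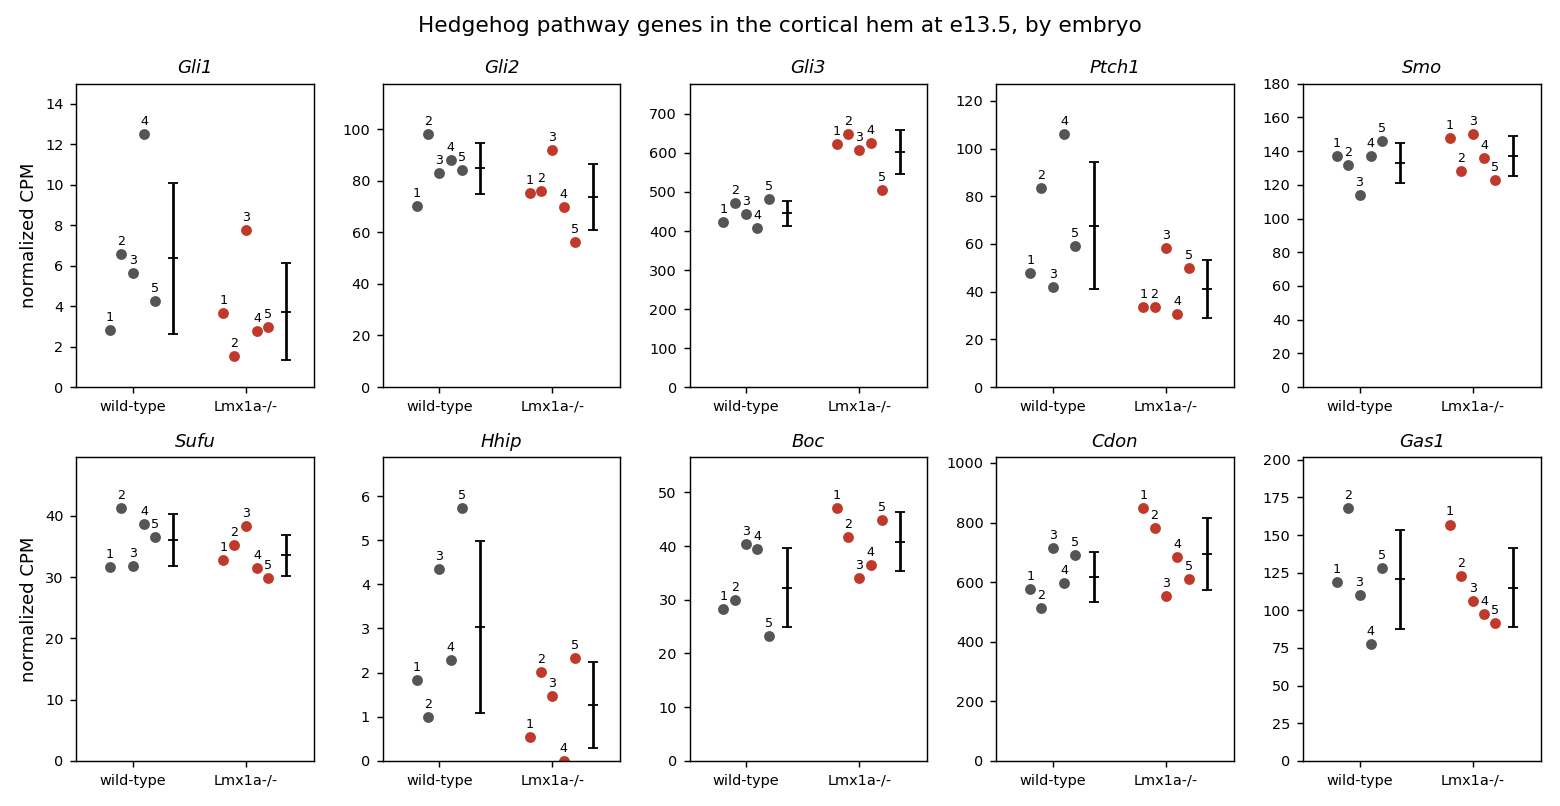
Normalized CPM (vertical axes, from 0) of the 10 genes in each of the 10 embryos, with the embryo number above each point and mean ± SD (n = 5) beside each group. *Gli3* is the 1 panel in which all red *Lmx1a*-/- points (505 to 648) lie above all grey wild-type points (407 to 482).

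Library totals lay between 19145952 and 36462780 counts. The genotypes differed in sex chromosome transcripts: *Xist*, transcribed from the inactive X chromosome, stood at 4399 to 5169 normalized CPM in wild-type embryos 2 to 5 and at 0.163 to 1.15 in wild-type embryo 1 and all mutants, and the summed level of 4 Y-linked genes was at most 0.0588 in the former and 341 to 451 in the latter. All 14 CH marker genes passed the filter, with a summed level of 2380 to 4508 normalized CPM in wild-type and 2786 to 3923 in *Lmx1a*-/- libraries, and 6 of them were lower and 1 (*Lmx1a*) higher in the mutants. Of 14 choroid plexus genes 12 were tested, 11 with a lower mean in mutants and a median log2 fold change of -1.09, though 1, *Ttr*, passed the threshold, and they summed to 136 to 487 and 157 to 237. The 8 cortical neuroepithelium genes summed to 498 to 877 in wild-type and 789 to 1058 in mutant libraries, with 1 of 8, *Emx2*, higher, and the 12 genes of mesenchyme and meninges summed to 355 to 1031 and 314 to 542, with 3 of 12 lower. Sums did not overlap for Cajal-Retzius cells (302 to 511 in wild-type and 203 to 290 in mutant libraries, 4 of 7 tested genes lower and 1 higher) or for red blood cells (616 to 1462 and 261 to 568, none of 6 past the threshold and 4 with an unadjusted p under 0.05 in edgeR's quasi-likelihood test). In bulk RNA of dissected tissue, fewer cells of a type and less RNA per cell cannot be told apart.

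*Gli3* (ENSMUSG00000021318, GRCm38 chr13:15463235-15730026, + strand) encodes the Gli factor that serves mainly as a repressor in the dorsal telencephalon. In wild-type embryos 1 to 5 its level was 424, 472, 443, 407 and 482 normalized CPM. In *Lmx1a*-/- embryos 1 to 5 it was 622, 648, 608, 626 and 505. The mutant libraries were all higher than the wild-type ones, 4 of them by a wide margin, and mutant embryo 5 lay closest to the wild-type range. The means were 446 ± 31.7 and 602 ± 56.2 (SD, n = 5), with a 95% interval of the log2 fold change of 0.26 to 0.60. An exact two-sided permutation test of the log2 CPM gave p = 0.00794, the smallest that the 252 relabellings of 5 against 5 embryos allow. Any gene without overlap reaches this value, so it adds nothing to the separation of the libraries.

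*Gli3* passed the threshold in all 10 fits that left out 1 embryo, with log2 fold changes of 0.40 to 0.50. Scaled by library size only, mutant embryo 5 (484) fell just below wild-type embryo 5 (485), so the groups then overlapped. With the *Xist* level as a covariate the log2 fold change was 0.49 with an FDR of 0.326, and between wild-type embryo 1 and the 5 mutants, which all carried Y-linked transcripts, it was 0.50 with an FDR of 0.337. With the mean of the choroid plexus genes as a covariate it was 0.40 (FDR 0.941), and with that of the cortical neuroepithelium genes 0.38 (FDR 0.217). In these 4 fits the difference lay between 0.38 and 0.50 while its call was lost. With the *Xist*, choroid plexus and cortical neuroepithelium covariates its SE was 0.11 to 0.15, against 0.079 without a covariate. These covariates moved with genotype (correlations -0.83, -0.83 and 0.65), so the fits cannot tell them apart from it. With the mesenchyme genes as the covariate the *Gli3* difference was 0.35 and passed (FDR 0.0455).

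*Gli2* and *Gli1*, the other Gli factors, act mainly as an activator and as a target and amplifier of the pathway, respectively. *Gli2* (ENSMUSG00000048402, chr1:118834132-119053619, − strand) ranged from 70.1 to 98.0 normalized CPM in wild-type embryos, with a median of 84.3, and stood at 75.3, 76.1, 91.7, 69.7 and 56.1 in mutant embryos 1 to 5. The groups overlapped widely, and the log2 fold change of -0.20 ± 0.12 SE (95% interval -0.46 to 0.07) did not pass (FDR 0.458). *Gli1* (ENSMUSG00000025407, chr10:127329882-127341974, − strand) stood at 2.84, 6.58, 5.62, 12.5 and 4.25 in wild-type embryos 1 to 5 and at 3.66, 1.52, 7.77, 2.77 and 2.96 in mutant embryos 1 to 5. Wild-type embryo 4 was the highest and mutant embryo 2 the lowest, with the remaining 8 libraries mixed between genotypes. The log2 fold change of *Gli1* was -0.76 ± 0.44 SE (95% interval -1.70 to 0.19, FDR 0.424), -0.36 without wild-type embryo 4 and -1.21 without mutant embryo 3, and it did not pass in any of the 10 fits without 1 embryo. It was 0.52 with the *Xist* covariate, 0.32 with the choroid plexus covariate, -0.02 with the cortical neuroepithelium covariate and 0.40 between the libraries with Y-linked transcripts, with FDRs of 0.860 to 0.999.

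Per length, on the scale of RPKM (normalized CPM per kilobase of merged exons), *Gli3* made up most of the signal of the 3 Gli genes in both genotypes. Its share of their summed RPKM was 80.4%, 75.9%, 77.8%, 73.5% and 79.3% in wild-type embryos 1 to 5 and 84.7%, 85.6%, 81.0%, 85.9% and 85.7% in mutant embryos 1 to 5. The share of *Gli2* was 18.6% to 22.2% in wild-type and 13.3% to 17.1% in mutant libraries. Neither the *Gli3* nor the *Gli2* share overlapped between genotypes, whereas the *Gli1* share (1.03% to 4.34% and 0.386% to 1.99%) did. These shares were computed after the *Gli3* values were seen, hold the same *Gli3* difference and were not tested.

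The stretches before the RefSeq starts of *Gli3*, the gene that changed, and of *Ptch1*, the receptor gene that is itself a pathway target, are shown to give their base composition. Each is the 250 bases before the RefSeq transcription start on GRCm38.p6, written 5′ to 3′ on the gene's strand with CpG dinucleotides in capitals, at chr13:15463473-15463722 (+ strand) for *Gli3* and chr13:63565736-63565985 (− strand) for *Ptch1*. Both starts lie inside the gene spans of the GENCODE annotation, which begin at transcripts that start farther 5′.
Gli3: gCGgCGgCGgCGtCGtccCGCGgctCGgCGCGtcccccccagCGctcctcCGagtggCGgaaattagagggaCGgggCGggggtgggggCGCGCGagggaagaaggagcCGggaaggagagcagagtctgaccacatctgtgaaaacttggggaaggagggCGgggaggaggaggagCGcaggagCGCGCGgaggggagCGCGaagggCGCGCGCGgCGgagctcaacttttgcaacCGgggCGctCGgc
Ptch1: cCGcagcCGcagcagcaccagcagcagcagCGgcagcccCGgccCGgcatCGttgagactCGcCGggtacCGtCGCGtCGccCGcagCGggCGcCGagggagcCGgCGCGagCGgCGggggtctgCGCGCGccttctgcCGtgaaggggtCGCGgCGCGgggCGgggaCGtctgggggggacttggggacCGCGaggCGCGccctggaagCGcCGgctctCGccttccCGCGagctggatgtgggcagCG
The *Gli3* stretch holds 34 CpG dinucleotides with 72.8% G and C, and that of *Ptch1* holds 41 with 78.4%. RefSeq promoters of 8 of the 10 genes were matched, from 250 bases before to 50 after the start. *Gli1* and *Boc* had no such promoter and were not searched. The *Cdon* window (chr9:35451826-35452125) also lies inside its gene span, which begins at 35421128. None of the 8 held the Gli motif GACCACCCA on either strand, with or without 1 mismatch, nor the homeodomain motif TAATTA. No stretch of letters fits both motifs. Of 32851 promoters of the same length 0.253% held the Gli motif, 6.74% held it with up to 1 mismatch and 5.29% held TAATTA. These letters are absent from these windows, which says nothing of binding elsewhere.

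*Ptch1* (ENSMUSG00000021466, chr13:63508328-63573598, − strand), the ligand receptor, had the lowest p after *Gli3*. Its level was 47.8, 83.6, 41.9, 106 and 59 normalized CPM in wild-type embryos 1 to 5. In *Lmx1a*-/- embryos 1 to 5 it was 33.4, 33.5, 58.1, 30.7 and 49.9. Mutant embryos 1, 2 and 4 lay below every wild-type library, mutant embryos 3 and 5 lay within the wild-type range, and wild-type embryo 4 stood highest. The log2 fold change was -0.72 ± 0.25 SE (95% interval -1.26 to -0.17), with an unadjusted p of 0.0136 in edgeR's quasi-likelihood test and an FDR of 0.171, so *Ptch1* did not pass. By the likelihood ratio test of edgeR it did (FDR 0.0951).

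The call of *Ptch1* depended on single embryos. Without wild-type embryo 3 it passed with a log2 fold change of -0.85 (FDR 0.0856), and without mutant embryo 3 with -0.88 (FDR 0.0962), while without wild-type embryo 4 it was -0.50 (FDR 0.331). With the cortical neuroepithelium genes as a covariate, an alternative added after the values were seen, the difference was 0.03 ± 0.14 SE, and with the choroid plexus genes it was 0.27 ± 0.33 SE. With the *Xist* covariate it was -0.15 (FDR 0.945), and between the libraries with Y-linked transcripts -0.22 (FDR 0.869). The part of these marker levels, which moved with genotype, in the *Ptch1* and *Gli1* values was not tested further.

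**Figure D2:**
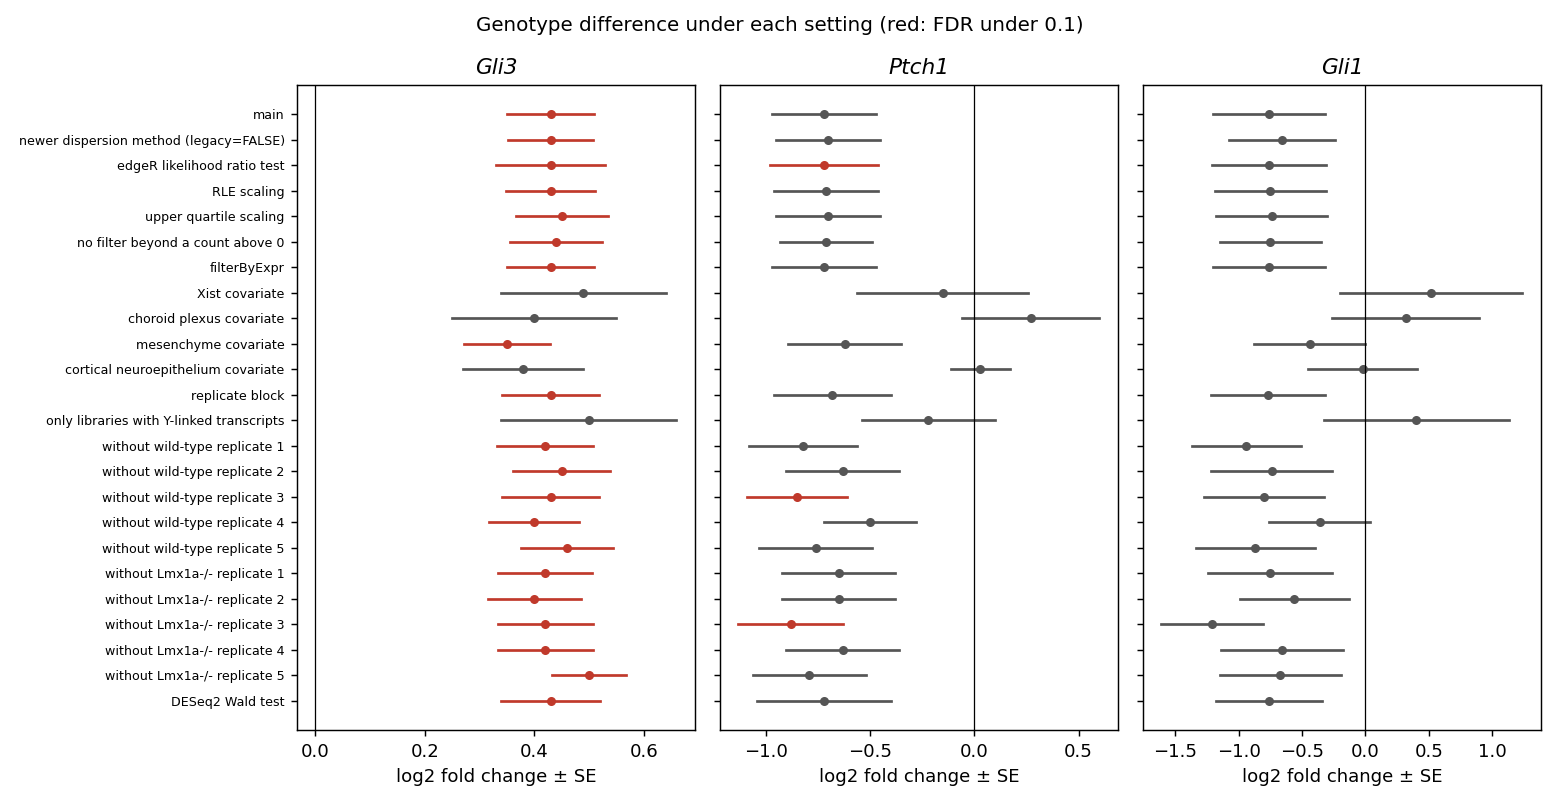
Log2 fold change ± SE (horizontal axes) of *Gli3*, *Ptch1* and *Gli1* between *Lmx1a*-/- and wild-type CH under each setting (rows), with red marking an FDR under 0.1. *Gli3* lay between 0.35 and 0.50 in all rows, *Ptch1* between -0.88 and 0.27, and *Gli1* between -1.21 and 0.52.

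*Hhip* (ENSMUSG00000064325, chr8:79965851-80058006, − strand), a membrane protein that binds and sequesters the ligands and is a pathway target, was the lowest of the 10 genes. Its level was 1.83, 0.992, 4.35, 2.28 and 5.73 normalized CPM in wild-type embryos 1 to 5 and 0.532, 2.01, 1.46, 0 and 2.33 in mutant embryos 1 to 5. Wild-type embryos 3 and 5 were above all mutants, and the other libraries overlapped. The log2 fold change of -1.28 ± 0.76 SE had a 95% interval of -2.92 to 0.35 and did not pass (FDR 0.436).

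*Boc*, *Cdon* and *Gas1* encode coreceptors that help the ligand bind Ptch1. *Boc* (ENSMUSG00000022687, chr16:44485049-44558897, − strand) stood at 28.3, 30.0, 40.3, 39.4 and 23.3 normalized CPM in wild-type embryos 1 to 5 and at 47.1, 41.7, 34.1, 36.4 and 44.9 in mutant embryos 1 to 5. Mutant embryos 1, 2 and 5 lay above all wild-type libraries and mutant embryos 3 and 4 within their range. The log2 fold change of *Boc* was 0.34 ± 0.15 SE (95% interval 0.01 to 0.67), with an unadjusted p of 0.0429 in edgeR's quasi-likelihood test and an FDR of 0.284.

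*Cdon* (ENSMUSG00000038119, chr9:35421128-35507652, + strand) ranged from 513 to 716 normalized CPM in wild-type embryos, with a median of 596, and from 555 to 849 in mutants, with a median of 683. Mutant embryos 1 and 2 (849 and 781) lay above the wild-type range and the other 3 within it, and the log2 fold change was 0.17 ± 0.12 SE (FDR 0.531). *Gas1* (ENSMUSG00000052957, chr13:60174405-60177365, − strand) ranged from 77.4 in wild-type embryo 4 to 168 in wild-type embryo 2, and from 91.8 to 157 in mutants. All mutant values of *Gas1* lay within the wild-type range, with a log2 fold change of -0.06 ± 0.19 SE (95% interval -0.46 to 0.34, FDR 0.906). Of the exons of *Gas1*, 19.9% lie opposite those of *Gm48488*, against at most 5.31% for any 1 overlapping gene of the other 9, and without a stated strand setting such reads cannot be told apart.

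*Smo* and *Sufu*, which carry the signal from the membrane to the Gli factors, had overlapping levels in both genotypes. *Smo* (ENSMUSG00000001761, chr6:29735503-29761365, + strand), the transducer, stood at 137, 132, 114, 137 and 146 normalized CPM in wild-type embryos 1 to 5 and at 148, 128, 150, 136 and 123 in mutant embryos 1 to 5. Its log2 fold change of 0.04 ± 0.084 SE (FDR 0.872) had a 95% interval of -0.14 to 0.22. *Sufu* (ENSMUSG00000025231, chr19:46396896-46488804, + strand), the inhibitor that holds Gli factors in the cytoplasm, ranged from 31.7 to 41.3 in wild-type and from 29.8 to 38.4 in mutant libraries. These groups overlapped, with a log2 fold change of -0.10 ± 0.11 SE (95% interval -0.33 to 0.13, FDR 0.691).

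**Figure D3:**
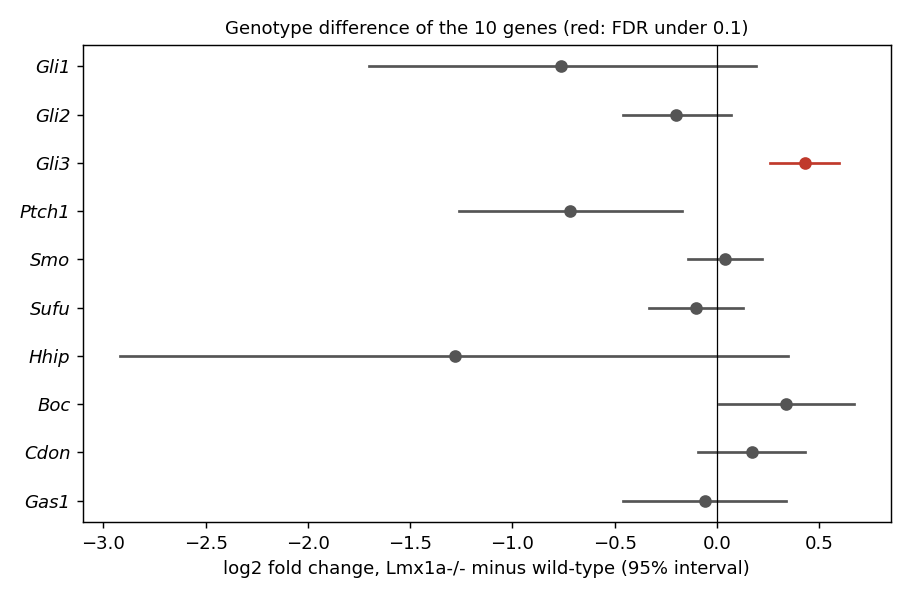
Log2 fold change between *Lmx1a*-/- and wild-type CH (horizontal axis) with its 95% interval for each of the 10 genes (n = 5 embryos per genotype). The *Gli3* interval (0.26 to 0.60, red) is the 1 that passed an FDR of 0.1, those of *Ptch1* and *Boc* also leave out 0, and the *Hhip* interval is the widest.

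Levels of different genes were compared per length, as RPKM. In wild-type CH the order ran from *Cdon* (80.1 ± 10.8 RPKM, SD, n = 5) through *Gli3* (46.5 ± 3.31), *Gas1* (40.7 ± 11.1), *Smo* (23.7 ± 2.11) and *Gli2* (12.3 ± 1.46) to *Boc* (7.25 ± 1.65), *Ptch1* (4.77 ± 1.88), *Sufu* (4.68 ± 0.548), *Gli1* (1.27 ± 0.744) and *Hhip* (0.335 ± 0.215). Of the 9 neighbouring pairs, 5 had ranges that did not overlap over the 5 libraries. The ranges of *Gli3* and *Gas1*, *Boc* and *Ptch1*, *Ptch1* and *Sufu*, and *Gli1* and *Hhip* overlapped. Within a library, *Boc* stood above *Ptch1* and *Gli1* above *Hhip* in 5 of 5 wild-type embryos, *Gli3* above *Gas1* in 4 and *Ptch1* above *Sufu* in 2. The coreceptors *Cdon* and *Gas1* thus had more signal per length than the receptor *Ptch1*, and the targets *Gli1* and *Hhip* the least. In *Lmx1a*-/- CH the same order held except that *Sufu* (4.37 ± 0.439) stood above *Ptch1* (2.90 ± 0.856), a pair that already overlapped in wild-type libraries. With the length of the longest transcript in place of merged exons, *Sufu* ranked at 6, *Boc* at 7 and *Ptch1* at 8 in wild-type CH.

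The ligand genes were close to absent. *Shh* was at 0.0747, 0.226, 0, 4.05 and 0 normalized CPM in wild-type embryos 1 to 5 and at 0.632, 0.109, 0, 0 and 0.383 in mutant embryos 1 to 5. Only wild-type embryo 4, with 78 reads on *Shh*, stood above 1 CPM, and the same embryo had the highest *Gli1* and *Ptch1* and the lowest *Gli3* and *Gas1* of the 5 wild-type libraries. It also stood apart in other genes, named after their values were seen: *Foxa2*, a floor plate gene (5.50 normalized CPM against at most 0.388 in the other 9), *Hand2* (7.63 against at most 2.16), *Twist1* of mesenchyme (57.8 against at most 21.1) and *Sostdc1* of the choroid plexus list (59.9 against at most 17.8). The summed mesenchyme and choroid plexus lists did not set it apart (713 and 305, within 355 to 1031 and 136 to 487 over the other wild-type libraries). *Foxc1* (4.57) and *Ogn* (8.56) of the mesenchyme list were at their lowest of the 10 libraries there. Single choroid plexus genes, also named after their values were seen, went both ways in this embryo. *Ttr* (21.3) and *Clic6* (35.8) lay below their wild-type medians of 77.2 and 79.2, and *Enpp2* (52.8) was at its highest of the 10 libraries. The part of these genes in its *Shh*, *Gli1* and *Ptch1* values was not tested. *Ihh* and *Dhh* had at most 5 and 7 reads in any library and were not tested. Among the 6 tested genes of ligand release none passed or had an unadjusted p under 0.05 in the quasi-likelihood test of edgeR, and the smallest p belonged to *Disp1*, which lets the ligand leave the cell (-0.33 ± 0.21 SE, FDR 0.480).

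Beside the 10 genes, 79 symbols in 6 lists stand for the steps around them, of which 78 were in the table and 67 were tested. Of these, 3 passed, 1 higher (*Dlx5*) and 2 lower (*Ccnd2* and *Bcl2*), against 4.02% of all genes tested, with a median log2 fold change of 0.05. All 3 belong to the lists of targets. Of the 7 tested ventral neural targets all 7 had a higher mean in mutants (median log2 fold change 0.88). Mutant embryo 5 was the highest of the 10 libraries for all 7, which raised these means. Wild-type and mutant medians were close for *Nkx2-1* (3.83 and 4.51 normalized CPM), *Olig2* (1.34 and 1.46) and *Dlx2* (8.13 and 8.17). They lay farther apart for *Dlx1* (7.54 and 11.2), *Lhx6* (4.51 and 9.84), *Gsx2* (0.672 and 1.67) and *Dlx5* (6.9 and 23.9). Of the 10 tested further target genes 3 had a higher and 7 a lower mean (median -0.36), against 10702 higher and 10962 lower over all genes tested. None of the 9 further membrane regulators, 17 cytoplasmic transducers and 18 genes of ciliary transport passed, where 2, 4 and 1 had an unadjusted p under 0.05 in edgeR's quasi-likelihood test, against 16.4% of all genes tested.

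**Figure D4:**
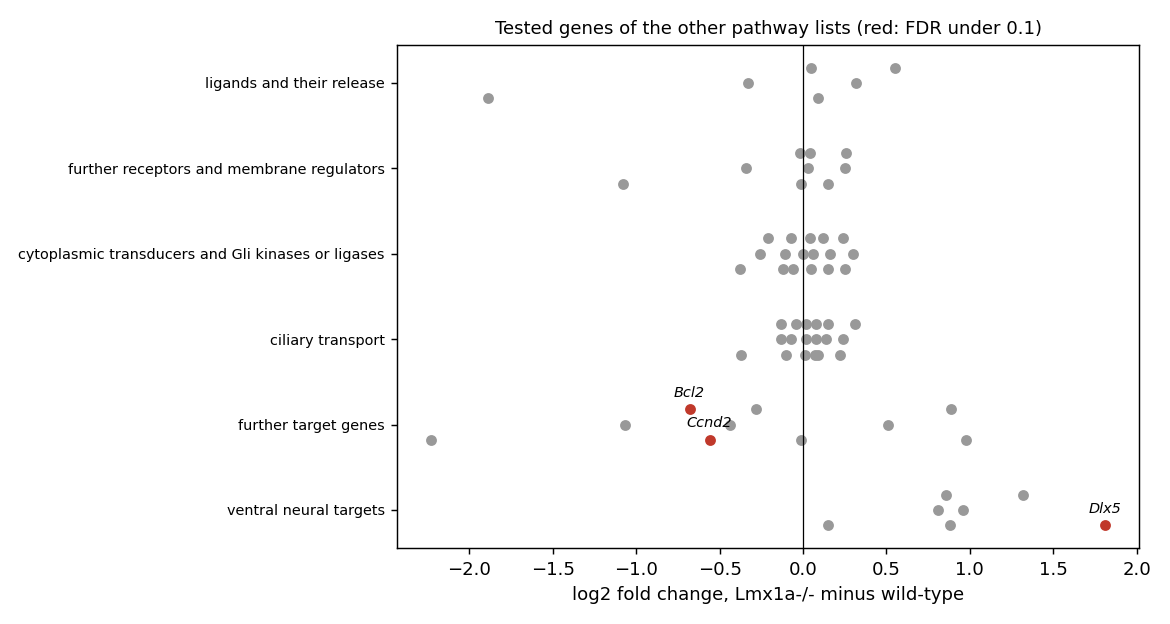
Log2 fold change between *Lmx1a*-/- and wild-type CH (horizontal axis) of the 67 tested genes of 6 pathway lists (rows, with points spread vertically for legibility), red where the FDR was under 0.1. The 3 red points are *Bcl2* (-0.68), *Ccnd2* (-0.56) and *Dlx5* (1.81), and the transducers and ciliary genes lie within 0.4 of 0.

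*Ccnd2*, a D-type cyclin, stood at 548, 636, 553, 592 and 436 normalized CPM in wild-type embryos 1 to 5 and at 350, 441, 362, 368 and 353 in mutant embryos 1 to 5. Mutant embryo 2 lay just above wild-type embryo 5 and the other libraries were separate, with a log2 fold change of -0.56 ± 0.10 SE (FDR 0.0102). *Bcl2*, an inhibitor of apoptosis, ranged from 60.3 to 91.2 in wild-type and from 36.3 to 57.8 in mutant embryos, without overlap, and fell by 0.68 on the log2 scale (SE 0.14, FDR 0.0215). *Ccnd1*, the related D-type cyclin, named after its values were seen, had a log2 fold change of -0.01 ± 0.19 SE. *Mycn* (0.51 ± 0.15 SE, FDR 0.113) and *Foxf2* (-1.07 ± 0.32 SE, FDR 0.111) of the same list, also named after their values were seen, did not pass.

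*Dlx5*, a homeobox gene of ventral forebrain interneuron precursors, stood at 10.9, 6.90, 3.38, 12.7 and 4.69 normalized CPM in wild-type embryos 1 to 5 and at 23.9, 13.6, 22.6, 31.5 and 42.5 in mutant embryos 1 to 5. All mutants lay above all wild-type libraries, mutant embryo 5 highest, and the log2 fold change was 1.81 ± 0.36 SE (FDR 0.021). The 6 ventral telencephalon markers, a list that holds *Dlx5* itself, summed to 18.5 to 54.8 in wild-type libraries and to 54.8, 24.3, 33.8, 55.9 and 166 in mutant embryos 1 to 5, so that mutant embryo 5 stood apart. Without that embryo *Dlx5* was 1.59 (FDR 0.0512). *Ccnd2*, *Bcl2* and *Dlx5* passed in every fit without 1 embryo, and none of them passed with the *Xist* or choroid plexus covariate or between the libraries with Y-linked transcripts, where their log2 fold changes were -0.55 to -0.61 for *Ccnd2*, -0.45 to -0.57 for *Bcl2* and 1.29 to 2.92 for *Dlx5*. With the cortical neuroepithelium covariate *Ccnd2* (-0.52, FDR 0.156) and *Bcl2* (-0.55, FDR 0.286) did not pass and *Dlx5* did (2.43, FDR 0.0449).

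Among the genes that did not pass, *Gpr161*, a ciliary receptor that restrains the pathway, was at 45.5 to 52.4 normalized CPM in wild-type and 52.9 to 63.2 in mutant embryos, without overlap (0.26 ± 0.082 SE, FDR 0.135). *Gpr161* (chr1:165295789-165326745) lies near *Lmx1a* itself (chr1:167689237-167848741), and the part of this position in its values was not tested. *Gpc3*, a glypican that competes with Ptch1 for ligand, had a log2 fold change of -1.08 ± 0.38 SE (FDR 0.172), with 182 in wild-type embryo 4 against 28.0 to 71.4 in the other 9 libraries. *Prkaca*, a catalytic subunit of protein kinase A, was at -0.38 ± 0.12 SE (FDR 0.118), and *Gsk3b*, another kinase that acts on Gli factors, at 0.24 ± 0.080 SE (FDR 0.144). The ciliary genes with the smallest p were *Ofd1* (0.31 ± 0.10 SE, FDR 0.157), a basal body protein, and *Ift80* (-0.13 ± 0.082 SE, FDR 0.469), a subunit of intraflagellar transport. *Gpc3* and *Ofd1* lie on the X chromosome. Sex chromosome transcripts moved with genotype, so for every gene here, X-linked or autosomal, a genotype difference cannot be told apart from one of sex.

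As a description of genes measured in the same dissected tissue, the mean of each genotype was subtracted from log2 CPM. The genes most like *Gli3* and *Gli1* across embryos were then sought by Pearson's r over the 10 libraries. For *Gli3* they were *Dlat* (r = 0.94), *Fubp1* (0.93) and *Msl2* (0.92) among 9267 genes, and without the 2 libraries farthest from the median of *Gli3* (mutant embryo 5 and wild-type embryo 4) these were 0.96, 0.85 and 0.75. For *Gli1* they were *Col5a1*, a fibrillar collagen (0.96), *Trp63* (0.95) and *Snai2*, a transcription factor of mesenchymal and neural crest cells (0.94), and 0.87, 0.91 and 0.92 without mutant embryo 3 and wild-type embryo 4. *Ptch1*, the other classical target, ranked at 165 of 9268 for *Gli1* with r = 0.73, which was 0.34 without those 2 libraries. *Gli3* and *Gli1* had r = -0.22 with each other.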

How the data were processed

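RNA of laser-captured CH was purified with a Pico Pure kit, and libraries were made with a SMARTER kit from 5 wild-type and 5 *Lmx1a*-/- embryos. Per the submitters' notes and the study's methods, reads were checked with FastQC 0.11.8, trimmed with Trimmomatic, aligned to GRCm38 (Ensembl 102) with STAR 2.7.1a and counted per gene with HTSeq 0.11.2. The authors deposited these counts without normalization. The strand setting is not given in the sources used here, so reads of genes that overlap on opposite strands may be mixed. Of 52508 rows, 281 exact repeats were dropped.

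A gene entered the fit when 3 or more libraries held 10 or more counts for it. Tests ran in R 4.3.3 with edgeR 4.0.16 (TMM scaling, quasi-likelihood test, older dispersion method, no covariate), with Benjamini-Hochberg adjustment over all genes tested and an FDR of 0.1. The SE is the log2 fold change divided by the square root of F. RPKM used merged exons of GENCODE M21, which also gave positions. Log2 CPM used a prior count of 2. Library totals set the counting precision of low genes. The main fit, and no other, was tested on simulated counts, with planted changes larger than that of *Gli3* and without a sex or tissue factor.

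The 10 genes and all lists were chosen with earlier results of these data known. Named are the 10 genes, the 3 ligands, from other pathway lists genes past the threshold or else the 2 with the smallest p, and for *Gli3* and *Gli1* the 3 most similar genes with a mean of at least 10 CPM. Of the genes that this rule names, 1 is not reported here and stands in no list count. Markers are named where they passed and touch a result. Alternatives were other edgeR tests and dispersions, DESeq2 1.42.0, other scaling and filters, an FDR of 0.05, covariates, a block for the embryo number, libraries with Y-linked transcripts only, and each embryo left out. The cortical neuroepithelium covariate was chosen after seeing the data. Samples were grouped by their labels, and replicates are separate embryos.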

Additional observations from a re-analysis of the deposited data

Results flagged for a closer look

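Of 42 groups of 5 embryos examined, 6 had an embryo far from the others by Dixon's test at the 95% level (critical value 0.71), where chance gives about 1 in 20. *Gli3* in *Lmx1a*-/- embryo 5 was at 505 normalized CPM, with the nearest other mutant at 608. *Disp1* in *Lmx1a*-/- embryo 2 was at 11.7, against 20.7 in the nearest. *Ccnd2* in the same embryo was at 441, against 368. The other 3 were wild-type embryo 4, with *Shh* at 4.05 against 0.226, *Gpc3* at 182 against 71.4 and *Ift80* at 60.5 against 69.5. Without wild-type embryo 4 the log2 fold change of *Gli3* was 0.40, and without *Lmx1a*-/- embryo 5 it was 0.50.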

How the results depend on the processing

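Of the 10 genes, 1 passed an FDR of 0.1, and this count was 2 with the likelihood ratio test and 0 with the *Xist*, choroid plexus or cortical neuroepithelium covariate and in the libraries with Y-linked transcripts. Without 1 embryo it was 1 to 2, the higher count without wild-type or *Lmx1a*-/- embryo 3. For the 67 further genes the count of 3 became 7 with the likelihood ratio test, 9 with DESeq2, 1 with the cortical neuroepithelium covariate and 0 with the *Xist* or choroid plexus covariate and in the libraries with Y-linked transcripts. Without 1 embryo it was 3 to 6, the 6 being reached without wild-type or *Lmx1a*-/- embryo 3. The count of genes without overlap went from 1 to 0 with library size only. The count of neighbouring pairs in the order of levels was 5 with the longest transcript as well, though *Sufu* then ranked above *Boc* and *Ptch1*. Over all genes tested, calls numbered 373 higher and 497 lower, 4 and 27 with *Xist*, 3 and 8 with the choroid plexus genes, 59 and 76 with the cortical neuroepithelium genes, 190 and 291 with the mesenchyme genes, 44 and 86 with Y-linked libraries, 555 and 805 with the likelihood ratio test and 790 and 976 with DESeq2. Without 1 embryo they ranged from 190 and 261 (without *Lmx1a*-/- embryo 4) to 455 and 604 (without *Lmx1a*-/- embryo 3), and were 213 and 291, 236 and 315, 250 and 328, and 238 and 308 without wild-type embryos 1 and 2 and *Lmx1a*-/- embryos 2 and 5. The correlations of *Xist*, choroid plexus and cortical neuroepithelium levels with genotype were -0.83, -0.83 and 0.65, so these fits cannot tell them apart from it.

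The sign turned in genes that had not passed. With the *Xist* covariate *Gli1* was 0.52, *Gli2* 0.08 and *Sufu* 0.08. With the choroid plexus covariate *Gli1* was 0.32, *Gli2* 0.00, *Ptch1* 0.27, *Sufu* 0.13, *Cdon* -0.17 and *Gas1* 0.15. With the cortical neuroepithelium covariate *Ptch1* was 0.03, *Sufu* 0.06 and *Cdon* -0.04. In libraries with Y-linked transcripts *Gli1* was 0.40, *Gli2* 0.07, *Smo* -0.01 and *Sufu* 0.08. Without 1 embryo *Smo* ranged from -0.02 to 0.08, with -0.00 without *Lmx1a*-/- embryo 3, and *Gas1* from -0.20 to 0.08, with 0.01 without *Lmx1a*-/- embryo 5. The cause was not tested.

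Embryos that share a number did not deviate together (correlations 0.01, -0.01, -0.23, -0.07 and -0.04). With the number as a replicate block 1 of the 10 genes and 3 further genes passed, as without it, *Gli3* with an FDR of 0.0565, and over all genes 248 were higher and 353 lower.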
